A study of Junco hyemalis with 48 samples.

Results

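The 63 gene models described here had more transcript in dark than in white tissue of growing junco tail feathers, both between whole feathers and within a single feather. They were taken from 20808 gene models by their measured levels. A member had a mean of at least 1 CPM (counts scaled to a common library total) in the dark inner feather, R2. That mean was at least 1.5 times the mean of the white outer feather, R6. R2 exceeded R6 in every bird with both feathers, and the dark part of the intermediate feather, R4, had at least 1.3 times the mean of its white part. Of all gene models, 13074 reached 1 CPM in R2, 114 of these had the whole-feather ratio, 87 of those had it in every bird's direction, and 63 also had the ratio within R4. Because these values chose the members, the contrasts of R2 with R6 and of the R4 parts are given as descriptions, and no test of them is read as a result.

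The samples were 48 libraries of regrowing tail feathers (rectrices) of the dark-eyed junco, Junco hyemalis, a songbird with white outer and dark inner tail feathers. Feathers were plucked on both sides of the tail and collected 14 days later. R6, the sixth rectrix, and R2, the second, were frozen whole, and R4, the fourth, was dissected into its white and dark parts. The labels name 7 animals, here given the letters A to G, whereas the growth protocol gives 6 birds. No genotype, sex or age was used, and plucking was common to all feathers. There were 11 R2 libraries (6 birds), 13 of the R4 dark part (7 birds), 11 of the R4 white part (6 birds) and 13 R6 libraries (7 birds). No R4 white library of bird C and no R2 library of bird E entered, and all libraries of bird E were from left feathers. Feather position differs between R2 and R6 together with colour, and dissection differs between R4 and the whole feathers.

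The dark colour of such feathers is melanin. Melanocytes in the feather follicle make the pigment in organelles called melanosomes and pass these to the keratinocytes of the growing barbs. A white feather region can lack melanocytes, or hold melanocytes that make or transfer no pigment. The deposited identifiers carry no gene names, so none of the 63 can be assigned to pigment synthesis, to its regulators or to anything else, and the tissue could not be checked against markers of melanocytes or of other cells. Members are called by their rank in the ratio of R2 to R6, and only the first and second are given by identifier. In whole tissue, fewer cells of a type and less RNA per cell cannot be told apart. CPM does not account for transcript length, so levels are compared between samples and not between genes.

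Library totals lay between 12.99 and 53.46 M counts, and a member had a median of 298.5 counts in a profile (left and right feathers of a bird and group together). In 11 members the lowest profile held fewer than 10 counts. RNA was extracted in 3 batches, the first with birds A and B, the second with C to E, and the last with F and G. The R4 white library of bird E was in the last batch too. A pair of profiles stood apart. In the profile labelled R4 dark of bird B, the members stood, by their median though not in every member, at the level of white tissue in both of its libraries. The R4 white profile of bird F stood above the other R4 white profiles. The leading values that rest on either are also given without it.

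Between R2 and R6 the members spanned a wide range. The ratio of means was at least 16 in 4 members, from 4 to 16 in 11, from 2 to 4 in 20 and from 1.5 to 2 in 28, with a median of 2.09 and a maximum of 223.3. The ratio within R4 had a median of 1.76 and a maximum of 10.6. At the thresholds, the lowest R2 mean among members was 1.06 CPM, and the nearest gene below had 0.975 CPM. The lowest ratio of R2 to R6 was 1.51 inside and 1.49 just outside. For the ratio within R4 these were 1.32 and 1.295. In the edgeR fit over all genes, which adjusts p-values over 15844 gene models, 46 members were called higher in R2 than in R6 against 0.808% of all genes. Between the R4 parts 26 were called higher in the dark part against 0.48%. The R2 and R6 levels of the birds did not overlap in 40 members, against 0.635% of the 13074 genes. Both contrasts were part of the choice, and nothing is read from these counts.

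The member of rank 1, g3235, showed the widest span. Its level in R2 was 125.2 CPM in bird A, 125.0 in B, 150.6 in C, 109.7 in D, 106.5 in F and 112.1 in G. In the R4 dark part it was 105.9 CPM in A, 144.7 in C, 65.2 in D, 80.9 in E, 85.1 in F and 77.5 in G, but 4.05 in B. The R4 white part had 6.04 CPM in A, 3.36 in B, 5.02 in D, 3.22 in E and 2.29 in G, and 25.5 in F. In R6 it lay between 0.267 and 0.956 CPM in all 7 birds, which is only 12 to 50 counts per profile. The ranges of R2, the R4 white part and R6 did not overlap, and the R4 dark part overlapped the R4 white part only through bird B and reached into the range of R2. Group means were 121.5 ± 16.3 CPM in R2 (SD over birds, n = 6), 80.5 ± 42.6 in the R4 dark part (n = 7), 7.57 ± 8.88 in the R4 white part (n = 6) and 0.544 ± 0.321 in R6 (n = 7). Without bird B the R4 dark mean was 93.2 ± 28.5 CPM (n = 6), and without bird F the R4 white mean was 3.99 ± 1.52 CPM (n = 5).

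The member of rank 2, g2687, followed the same order with different birds at the edges. Its R2 level was 123.7 CPM in A, 133.4 in B, 127.1 in C, 116.9 in D, 110.6 in F and 108.2 in G. The R4 dark part had 97.6 CPM in A, 112.7 in C, 82.1 in D, 113.6 in E, 86.1 in F and 76.7 in G, and 8.58 in B. The R4 white part had 8.52 CPM in A, 4.63 in B, 6.83 in D, 12.7 in E, 30.7 in F and 1.93 in G. R6 had 4.06 CPM in E and 0.172 to 1.56 CPM in the other birds, so R6 and the R4 white part overlapped. Leaving out bird B raised the R4 dark mean from 82.5 ± 35.6 CPM (SD, n = 7) to 94.8 ± 15.8 (n = 6). Leaving out bird F lowered the R4 white mean from 10.9 ± 10.4 CPM (n = 6) to 6.92 ± 4.07 (n = 5).

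Ranks 3 and 4 repeated the pattern at other levels. Rank 3 had means of 311.7 ± 28.9 CPM in R2, 193.3 ± 84.0 in the R4 dark part, 21.4 ± 19.4 in the R4 white part and 7.81 ± 1.58 in R6 (SD over birds). Without bird B its R4 dark mean was 223.0 ± 32.4 CPM (n = 6), and without bird F its R4 white mean was 13.6 ± 3.1 CPM (n = 5). Rank 4 had means of 33.6 ± 5.20 CPM, 22.1 ± 10.6 CPM, 2.94 ± 2.42 CPM and 1.10 ± 0.58 CPM in the same order. In the R4 dark part its level was 1.72 CPM in bird B and 19.4 to 36.9 CPM in the other 6 birds. Without bird F its R4 white mean was 2.0 ± 0.797 CPM (n = 5). For both, bird F was the highest of the R4 white profiles, at 60.7 and 7.66 CPM.

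**Figure D1:**
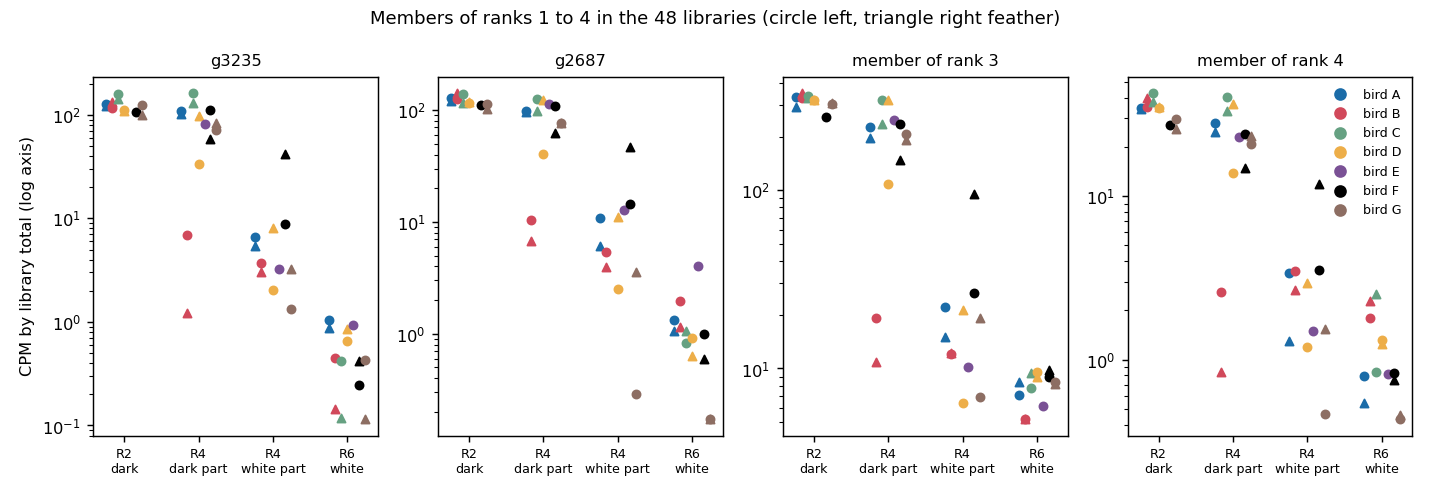
Level of the members of ranks 1 to 4 in every library, in CPM by library total on log axes, by group and bird (circles left feathers, triangles right feathers). The libraries of bird B labelled R4 dark lie at the level of the R4 white part, and the right R4 white library of bird F lies above the other R4 white libraries.

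In ranks 5 to 10 the means were again ordered R2, R4 dark, R4 white and R6, apart from rank 9, whose R4 white mean of 0.551 CPM was below its R6 mean of 0.563 CPM. Rank 5 varied widely in R2, from 12.5 CPM in bird G to 65.2 CPM in C, and its highest R4 dark value, 91.4 CPM in C, exceeded every R2 value. Rank 10 varied less between birds in R2, at 102.0 ± 9.48 CPM (SD, n = 6), and had 73.5 ± 26.8 CPM in the R4 dark part (n = 7), 20.7 ± 9.44 in the R4 white part (n = 6) and 14.9 ± 6.1 in R6 (n = 7). Without bird B its R4 dark mean was 82.0 ± 15.8 CPM (n = 6), and without bird F its R4 white mean was 18.1 ± 7.92 CPM (n = 5). Its R4 white and R6 ranges overlapped. Rank 7 lay between 11.6 and 18.6 CPM in R2 and between 0.953 and 2.35 CPM in R6.

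The member with the most counts was rank 22. It had 1392 ± 162.4 CPM in R2 (SD over birds, n = 6), 1155 ± 229.3 in the R4 dark part (n = 7), 733.2 ± 95.2 in the R4 white part (n = 6) and 541.7 ± 94.5 in R6 (n = 7). Bird B was again lowest in the R4 dark part, at 743.5 CPM, and without it the mean was 1223 ± 153.8 CPM (n = 6). All members together took 0.341 ± 0.028% of the counts of an R2 profile, 0.268 ± 0.065% in the R4 dark part, 0.147 ± 0.019% in the R4 white part and 0.125 ± 0.014% in R6. The R4 dark share was 0.148% in bird B and 0.254% to 0.370% in the other birds. Without rank 22 the mean shares were 0.202%, 0.154%, 0.0731% and 0.0704% in the same order of groups.

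To place the R4 parts on 1 scale for every member, each level was written as a position, with the R6 mean at 0% and the R2 mean at 100%. The median position over the 63 members was 67.2% for the R4 dark part (quartiles 57.4 and 78.4) and -0.69% for the R4 white part (quartiles -9.65 and 7.95). Without the profile of bird B labelled R4 dark, the median for the dark part was 78.9%, and without bird C altogether it was 62.9%. The median for the white part had no stable sign. It was 3.86% with CPM by TMM-scaled library sizes, 4.79% without bird A, 2.06% without C, 1.81% without E and 1.80% without G, and 5.66% in the members with R2 at least 2 times R6. It was -3.44% without bird B, -1.31% without D, and -7.93% without the R4 white profile of bird F.

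The 4 members with the widest R2 to R6 ratio sat close together on this scale, and those near the threshold were scattered. A range can also widen with the number of members. In the 4 members with a ratio of at least 16, the R4 dark part lay between 61.0% and 68.4% and the R4 white part between 4.48% and 8.04%. These means include the profile of bird B labelled R4 dark, at 1.89% to 6.09% in these members. They also include the R4 white profile of bird F, at 17.4% to 24.7%. The dark positions are therefore lower, and the white positions higher, than they would be without these profiles. In the 11 from 4 to 16 the medians were 62.3% and 6.0%, with ranges of 52.0% to 86.25% and -3.92% to 31.4%. The medians were 69.1% and 0.48% in the 20 members from 2 to 4, and 72.7% and -8.51% in the 28 from 1.5 to 2. A low R6 mean raises both the ratio that sets these strata and the position of the white part. In the last stratum positions ran from 30.7% to 117.6% for the dark part and from -56.8% to 16.4% for the white part. The denominator of a position is the difference of the R2 and R6 means. Multiplying all levels of a member by the same factor leaves its positions unchanged. Relative to the R6 mean, the denominator is smaller where the ratio of R2 to R6 is lower. A given change relative to the R6 mean is therefore more percent of the scale at a low ratio. Levels differed between strata too, with a median R2 mean of 5.13 CPM in the members from 4 to 16 and 17.3 CPM in those from 1.5 to 2. Why positions scattered more near the threshold was not tested.

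**Figure D2:**
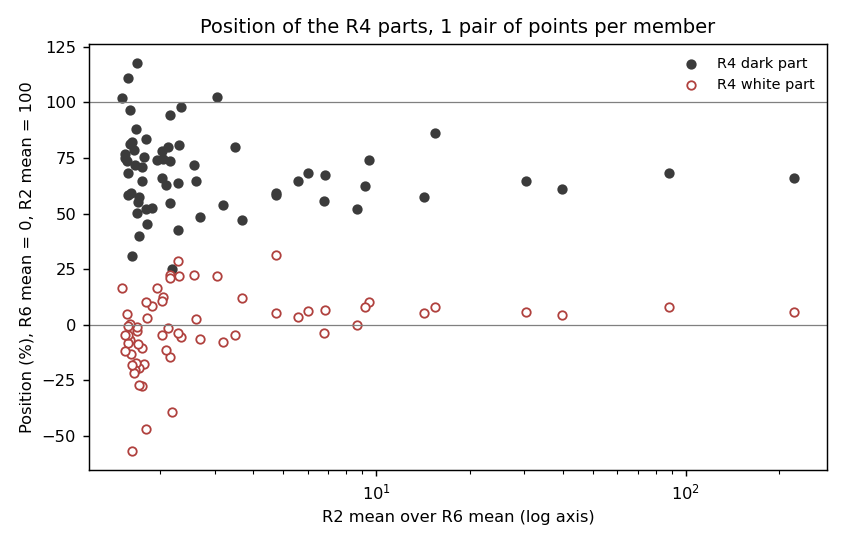
Position of the R4 dark part (filled) and the R4 white part (open) of each member, in percent with the R6 mean at 0 and the R2 mean at 100, against the ratio of R2 to R6 on a log axis. The 4 members with a ratio of at least 16 lie between 61.0% and 68.4% (dark part) and between 4.48% and 8.04% (white part), and the spread is wider near a ratio of 1.5.

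**Figure D3:**
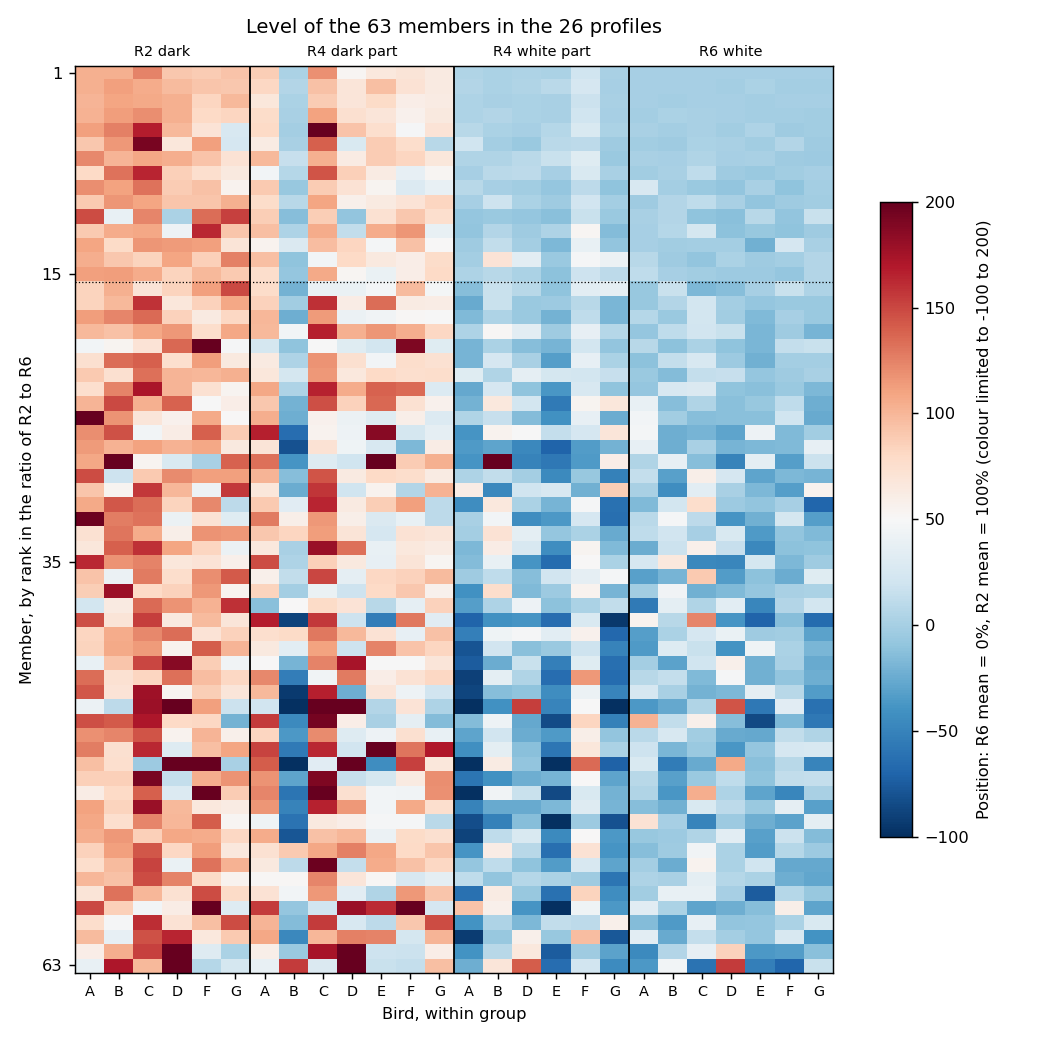
Position of each of the 63 members (rows, by rank; dotted line below rank 15) in each of the 26 profiles (columns, by bird within group), in percent with the R6 mean at 0 and the R2 mean at 100 and colours limited to -100 and 200. The R4 dark column of bird B has the colours of white tissue in most rows, and the R4 white column of bird F is lighter than its neighbours in the upper rows.

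Whether the 2 kinds of dark tissue differed is a comparison for which the rule set no ratio. The mean of R2 exceeded that of the R4 dark part in 59 of 63 members, against 36.7% of the 13074 genes with at least 1 CPM in R2. The rule took members for a high mean both in R2, which favours this direction, and in the R4 dark part relative to the white part, which favours the other. In the edgeR fit 0 members were called higher in R2, against 0.082% of all genes, and 0 were called lower, against 0.0442%. The lowest adjusted p among members was 0.168, and 22 members had an unadjusted p below 0.05, against 5.83% of all genes. DESeq2 called 1 member higher, rank 57, with a log2 fold of 0.28 (DESeq2 adjusted p = 0.0484), and 0 lower, against 0.511% of all genes in either direction. The median log2 fold was 0.31 in members and -0.002 in all genes. For g3235 the fold was 0.94 ± 0.48 (log2, SE, edgeR adjusted p = 0.876) and for rank 22 it was 0.33 ± 0.09 (edgeR adjusted p = 0.223), both higher in R2 in 6 of 6 birds. When the profile of bird B labelled R4 dark was left out, the fold of g3235 was 0.55 (edgeR adjusted p = 0.65) and that of rank 22 was 0.31 (edgeR adjusted p = 0.245). Without bird B altogether, the fold of g3235 was 0.44.

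Bird B carried much of the size of that difference. The median log2 ratio of R2 to the R4 dark part over the 15 members with R2 at least 4 times R6 was 2.97 in bird B, 0.38 in A, 0.16 in C, 0.51 in D, 0.43 in F and 0.37 in G. By extraction batch its mean was 1.67 in batch 1, which holds birds A and B, 0.34 in batch 2 and 0.40 in batch 3. The 4 members whose R4 dark mean was at least their R2 mean were ranks 19, 48, 59 and 63. Rank 19 had 3.46 ± 0.32 CPM in R2 and 3.52 ± 0.85 in the R4 dark part, a difference within the spread between birds. Levels of R2 lay above all R4 dark levels without overlap in 0 members, against 0.0765% of genes.

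The 2 kinds of white tissue differed in a few members. In the edgeR fit 3 members were called higher in the R4 white part than in R6, against 0.0884% of all genes. By edgeR 0 were called lower, against 0.379%, and 18 members had an unadjusted p below 0.05 in either direction, against 14.1% of all genes. DESeq2 called 7 higher and 0 lower, against 1.85% of all genes in either direction. The 3 called by edgeR were g3235, g2687 and the member of rank 22. For g3235 the log2 fold was 3.76 ± 0.66 (SE, edgeR adjusted p = 0.0135), for g2687 3.03 ± 0.54 (edgeR adjusted p = 0.014) and for rank 22 0.58 ± 0.09 (edgeR adjusted p = 0.00417). Each was higher in the R4 white part in 6 of 6 birds. The rule took members for a low mean both in R6, which favours this direction, and in the R4 white part relative to the dark part, which favours the other.

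The first and second of these calls depended on single birds. For g3235 the adjusted p was 0.0683 without bird A, 0.068 without D, 0.0633 without F and 0.0564 without G. For g2687 it was 0.111, 0.0943, 0.065 and 0.0538 without the same birds. The direction did not change, and the log2 fold of g3235 lay between 2.98 and 4.51 over the 16 alternatives tried. Without only the R4 white profile of bird F, the folds were 3.15 for g3235 and 2.51 for g2687, with edgeR adjusted p of 0.0242 and 0.0258. The call of rank 22 did not depend on any single bird, but it was lost without the bird as a block (edgeR adjusted p = 0.254), with only the 2 groups fitted (0.0598) and on libraries of 1 side (0.0685 left, 0.0719 right). The number of members called was 1 without bird A, D, F or G, 11 without bird B and 9 without only its profile labelled R4 dark. Calls in either direction over all genes moved too, from 0.467% to 3.88% without bird B and 1.99% without that profile, and to between 0.107% and 0.214% without bird A, D, F or G. Log2 ratios by bird were taken with 0.1 CPM added to both levels, which lowers them most where the R6 level is small. With this addition, the mean log2 ratio of g3235 in the R4 white part to R6 was 2.83 in batch 1 (2 birds). It was 2.58 in batch 2 (1 bird) and 4.28 in batch 3 (2 birds). Bird E, whose 2 profiles come from different batches, had 1.69.

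Over all members the mean of the R4 white part exceeded that of R6 in 30 of 63, against 30.9% of the 13074 genes, in plain CPM. In the edgeR fit, with TMM factors and the bird as a term, the log2 fold was above 0 in 43 of 63 members and in 50.2% of all genes, with medians of 0.08 and 0.0007. In plain CPM, the R4 white mean exceeded the R6 mean in 13 of the 15 members with R2 at least 4 times R6 and in 17 of the other 48. The 15 were split off by a high ratio of R2 to R6, which favours a low R6 mean and so this direction. Without overlap between birds, the R4 white part lay above R6 in 2 members, ranks 1 and 3, against 0.0612% of genes. The full order of means, R2 over R4 dark over R4 white over R6, was found in 28 members in plain CPM. The rule sets R4 dark over R4 white and R2 over R6 for every member. The share of all genes with this order was not computed, so nothing is read from the count.

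**Figure D4:**
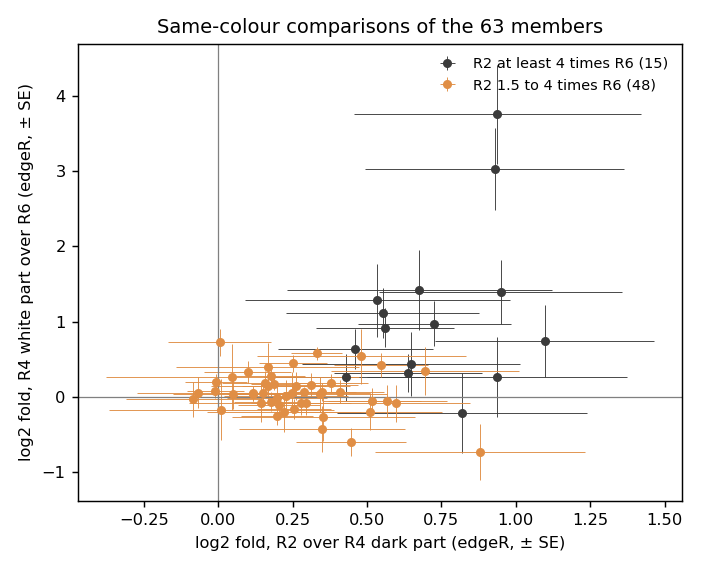
Log2 fold of R2 over the R4 dark part (horizontal) and of the R4 white part over R6 (vertical) for each of the 63 members, from the edgeR fit with bars of 1 SE. Members with R2 at least 4 times R6 are dark points, and g3235 and g2687 are the 2 points above 3 on the vertical axis.

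Within R4 the dark part exceeded the white part in all 6 birds with both parts in 17 members and in 5 of 6 birds in 38. Bird B accounted for most of the exceptions. The dark part was the higher in 63 of 63 members in bird A, 60 in D, 62 in E, 57 in F and 61 in G, but in 19 in bird B. The same held for 79.5%, 54.8%, 66.7%, 46.1%, 73.6% and 33.6% of the 13074 genes in birds A, D, E, F, G and B. The median log2 ratio of all genes was 0.38 in A, 0.14 in E, 0.19 in G and -0.15 in B, a shift of the whole libraries in plain CPM. Relative to that of all genes, the members' median log2 ratio was 1.17 in A, 0.76 in D, 1.26 in E, 0.45 in F, 0.89 in G and -0.20 in B. In bird B the profile labelled dark therefore held no more of the members than its white counterpart, by their median.

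The dark and white parts of R4 did not overlap between birds in 2 members, against 0.0994% of genes. These were ranks 55 and 57. Leaving out bird B made it 26 members against 0.642%, and leaving out the R4 white profile of bird F as well made it 33 against 2.03%. R2 lay above the R4 white part without overlap in 34 members, against 0.696%. The R4 dark part lay above R6 in 8 members against 0.107%, and without bird B in 28 against 0.482%. The rule favours each of these directions, so nothing is read from these counts. The profiles of birds B and F were left out after their values were seen.

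The median spread between birds was wider in members than over all genes. Genes were not matched for level, and 11 members held fewer than 10 counts in some profile. The members' median coefficient of variation over birds was 20.4% in R2, 34.6% in the R4 dark part, 40.9% in the R4 white part and 27.4% in R6. Over the 13074 genes it was 13.4%, 16.4%, 17.1% and 12.3%. Without bird B the value in the R4 dark part fell to 24.2% in members and 13.9% in all genes. The value in the R4 white part was not computed without bird F. Bird B was the lowest R4 dark profile in 53 of 63 members and in 42.7% of all genes. Bird F was the highest R4 white profile in 36 members and in 36.5% of all genes. Bird C was the highest in R2 in 25 members, against 16.1% of all genes, and the highest R4 dark profile in 35, against 10.65%. It has no R4 white library, so its R4 dark profile enters the ratio within R4 without a white counterpart. With R4 means over birds with both parts, the rule gave 60 members, all among the 63. When birds were tested over all groups, edgeR called 29 of 63 members (46.0%), against 43.2% of all genes. By stratum these were 0 of 4 members with a ratio of at least 16, 4 of 11, 9 of 20 and 16 of 28. With the profile of bird B labelled R4 dark left out, 40 of 63 were called, against 51.3% of all genes. Leaving out bird B altogether gave 38 against 46.1%, and DESeq2 gave 38 against 51.7%. Leaving out bird C gave 22 against 37%, and leaving out the R4 white profile of bird F gave 25 against 41.7%. How the members compared with the background therefore depended on the setting. Birds and extraction batches cannot be told apart in this test.

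Left and right feathers were averaged by the rule, so the side is a comparison independent of it. In the edgeR fit over single libraries 0 members differed between sides, against 0.0% of 14780 genes, and 1 member had an unadjusted p below 0.05. DESeq2 also called 0. The median log2 fold of right over left was 0.05 in members and 0.002 in all genes, and 51 of 63 members were higher on the right against 51.4% of all genes. Members share the same libraries, so the 51 are not independent. In single pairs the number higher on the right ran from 3 (R4 dark part of bird F) to 56 (R4 white part of bird F). The mean over birds hides sides that differed within a bird. In the 15 members with R2 at least 4 times R6, the median position of the R4 dark part in bird D was 32.8% on the left and 86.7% on the right. In bird F it was 85.4% on the left and 48.1% on the right. In the R4 white part of bird F it was 11.4% on the left and 34.4% on the right. There it was 0.045% and 5.70% in bird D, and -1.96% and 1.87% in G. As a log2 ratio of right to left, birds D and G differed about as F did in the R4 white part. The median over these 15 members was 0.99 in F, 1.04 in D and 0.67 in G, and -0.27 in A and -0.02 in B.

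These side differences were shared by most members. In the R4 dark part of bird D, 46 of 63 members were higher on the right, whereas 26.9% of the 13074 genes were. In the R4 dark part of bird F, 3 of 63 members were higher on the right, against 45.9% of genes. In the R4 white part 56 were in bird F, 45 in D and 48 in G, against 61.1%, 58.1% and 48.2% of genes. In birds A and B 39 and 19 were, against 72.0% and 45.8% of genes. In the profile of bird B labelled R4 dark, the position was 3.75% on the left and 0.555% on the right, so both of its libraries stood at the level of white tissue. In R2 the left and right positions were 106.3% and 100% in bird A, 104.6% and 109.8% in B and 110.3% and 113.5% in C, closer to each other than in the R4 dark part of birds D and F.

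**Figure D5:**
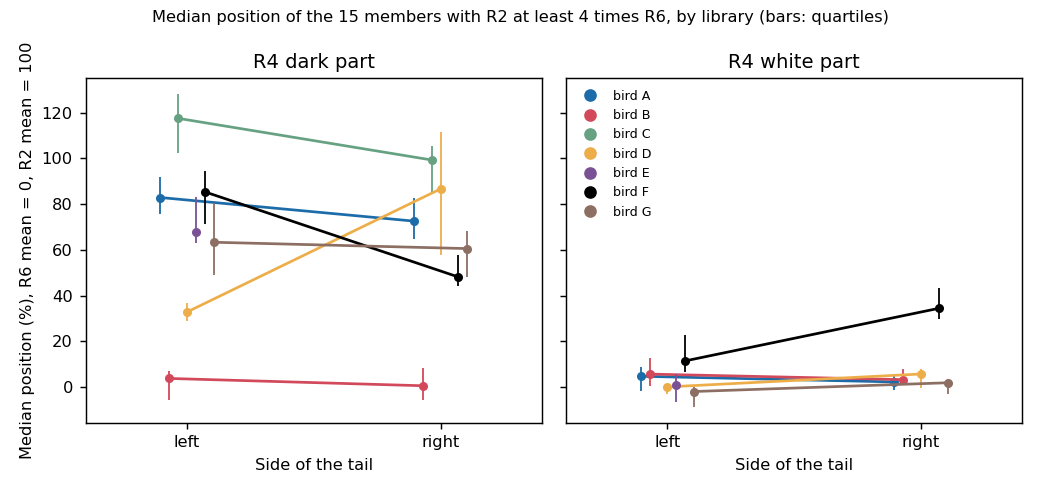
Median position of the 15 members with R2 at least 4 times R6 in each left and right library of the R4 parts, in percent with the R6 mean at 0 and the R2 mean at 100, joined within a bird, with bars for the quartiles over members. On this scale birds D and F change most between sides in the dark part and bird F in the white part, and bird B stays near 0 in the dark part.

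The choice was repeated without each bird, and the bird left out then gave values that had not been used. The 6 such lists for birds with R2 held 60 to 77 members. In whole feathers, R2 exceeded R6 in the bird left out for 60 of 60 members in bird A, 72 of 77 in B, 60 of 64 in C, 68 of 71 in D, 65 of 67 in F and 65 of 71 in G. Over all genes the share was between 44.8% and 51.7%. The median log2 ratio of the chosen members in the bird left out lay between 0.89 and 1.07. Within R4, the dark part was higher in the bird left out for 58 of 60 members in A, 63 of 71 in D, 54 of 56 in E, 57 of 67 in F and 69 of 71 in G. The shares over all genes were 79.5%, 54.8%, 66.7%, 46.1% and 73.6% in the same birds. The median log2 ratio was 1.51 in A, 0.73 in D, 1.43 in E, 0.42 in F and 1.01 in G, when that of all genes was 0.38, 0.03, 0.14, -0.03 and 0.19. In bird B the members chosen on the other birds were higher in the dark part in 18 of 77, with a median log2 ratio of -0.46 against -0.15 over all genes.

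The choice was also made on feathers of 1 side and tested on the other side of the same birds, which are not independent animals. The left feathers chose 73 members, of which 56 were among the 63. On the right feathers, edgeR called 37 of these 73 higher in R2 than in R6, against 0.37% of genes, and 1 higher in the R4 dark than in the R4 white part, against 0.0135%. In the latter contrast 62 of the 73 had a log2 fold above 0, against 48.3% of genes, with a median of 0.51. The right feathers chose 52 members, of which 42 were among the 63 and 51 could be tested. On the left feathers, 32 were called higher in R2 against 0.411% of genes and 13 higher in the R4 dark part against 0.11%. In the latter contrast 45 of 51 were above 0, against 51.2% of genes, with a median log2 fold of 0.89. Both sides share the bird and its extraction batch, so these counts are a description and not a separate test of the choice.

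Just outside the group, 24 genes passed every whole-feather step and missed the ratio within R4. Their median R2 to R6 ratio was 1.86 and the highest was 4.96. Their R4 ratio had a median of 1.09, and in 19 of 24 it was above 1. A further 15 genes failed only because at least 1 bird did not have the direction, and 13 of these had it in 5 of 6 birds.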

How the data were processed

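Per the labels' protocols, stranded mRNA libraries of regrowing feathers were sequenced. Per the submitters' processing notes, the tools were STAR 2.7.2b, Trimmomatic 0.33, bcl2fastq, Subread 1.6.0 and featureCounts. For the genome, annotation and strand setting there is no statement (not given in the sources used here), so reads shared by copies or overlapping genes are uncertain. The authors deposited raw counts per gene model, 20808 in all, without normalization. Plain CPM was computed by library total, averaged over left and right per bird and group (26 profiles). Log2 ratios of levels within a bird had 0.1 CPM added to both levels. The 22 left and right pairs differed beyond counting noise (chi-square per gene of at least 4.36). It was highest in the R4 dark pairs of bird B (139.9) and bird D (94.9), and at most 63.5 in the other pairs.

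Left and right counts were summed and tested with edgeR 4.0.16 (R 4.3.3), by the robust quasi-likelihood F test with TMM factors, the default expression filter and group and bird as terms, with Benjamini-Hochberg adjusted p below 0.05 as a call. Sides were tested over single libraries with bird and group as a block. DESeq2 1.42.0 was an alternative. Scripts were tested on simulated data. Bird pairs came from the same animal: the median correlation of their deviations from group means was 0.64 (R2 and R4 dark) and 0.52 (R4 white and R6), against -0.09 in both cases between different birds. For the group and bird tests, p-values measure the spread left between profiles after group and bird are accounted for. For the side test they measure the spread between the 22 feather pairs. Pairs of different groups can come from 1 bird, so these are not independent animals. Members and lists were chosen with earlier results of these data known. By rule, the 2 members of highest ratio are given by identifier and ranks 3 to 10 by rank. Ranks 19, 22, 48, 55, 57, 59 and 63 were singled out after their values were seen.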

Additional observations from a re-analysis of the deposited data

Results flagged for a closer look

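In 20 sets of values over 6 or 7 birds, 7 had a bird far from the rest, where chance gives about 1. The sets share birds and members, so they are not independent. Most of the 7 come from the R4 white profile of bird F and the profile of bird B labelled R4 dark. In the R4 white part, bird F had 25.5 CPM of g3235 when the next bird had 6.04 CPM, and 30.7 CPM of g2687 when the next had 12.7 CPM. In the same group the median position of the 15 members with R2 at least 4 times R6 was 21.2% in bird F and 4.77% in the next bird. In the profiles labelled R4 dark, bird B had 8.58 CPM of g2687 when the next lowest had 76.7 CPM, and a median position of 2.37% when the next lowest had 63.6%. In R6, bird E had 4.06 CPM of g2687, above the next value of 1.56 CPM. In R2, the members took 0.396% of the counts of bird C, and the next highest bird had 0.339%.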

How the results depend on the processing

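The rule gave 43 to 77 members under the other settings tried, apart from 35 with R2 at least 2 times R6. It gave 58 with TMM-scaled CPM, all among the 63, and 56 to 77 without 1 bird each. Members called higher in R4 white than in R6 (3) were 7 with DESeq2, 0 with only these 2 groups fitted, 0 on left and 0 on right libraries only, 9 without the profile of bird B labelled R4 dark, and 1 to 11 without 1 bird each. Without the bird block, which pairs profiles of 1 animal, they were 2. Over all genes, calls in either direction fell from 0.467% to 0.143% with only these 2 groups and 0.0505% without the bird block. They were 0.0343% on left and 0.0942% on right libraries. Members called higher in R2 than in R4 dark (0) were 1 with DESeq2. Members called different between birds (29) were 18 on left libraries, 14 on right libraries and 13 with R2 at least 2 times R6. The share called over all genes fell too, from 43.2% to 24.5% on left and 18.6% on right libraries. The cause was not tested. Fewer libraries or members entered the side and ratio settings. The other 139 summary values kept their call or lay within the spread between birds or, for counts, within 1.5 times the first count. Many of these were counts of 0 that stayed 0. For the R4 dark position the spread was an SD of 36.5%, bird B included, so a change from 67.2% to 78.9% lay within it. The rise from 29 to 40 members called between birds, without the profile of bird B labelled R4 dark, was also within the limit. Among single members 78 kept their side of the threshold and 18 lost the call in the same direction. The bird test has no version without the bird block and was not run that way. At under 10 counts in some profile, 11 members have wide counting error. Among them is g2687, with 7 counts in the R6 profile of bird G.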
